A study of Arabidopsis thaliana with 10 samples.

Results

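The CIN-type TCP genes of Arabidopsis thaliana are 8 transcription factor genes, TCP2 (AT4G18390), TCP3 (AT1G53230), TCP4 (AT3G15030), TCP10 (AT2G31070), TCP24 (AT1G30210), TCP5 (AT5G60970), TCP13 (AT3G02150) and TCP17 (AT5G08070), of 27444 protein-coding genes on the 5 nuclear chromosomes. They were chosen by name, and an H3K27ac peak was given to a gene where its summit lay in the gene or up to 1 kb upstream of its transcription start site (TSS). Acetylation of histone H3 at lysine 27 was mapped by ChIP-seq in inflorescences of pAP1::AP1-GR ap1 cal plants of the Ler background on days 0, 2, 4 and 8 of induction (stages S0, S2, S4 and S8), with 2 replicates per stage and 2 input libraries from flower stages 2 and 4. All plants, S0 included, lack functional AP1 and CAL and carry AP1 fused to the glucocorticoid receptor under the AP1 promoter, so that dexamethasone, applied daily, starts flower formation in meristems that otherwise keep proliferating. The authors took the S0 tissue before the first dexamethasone application, so only the later stages were treated. Each comparison of S0 with a later stage thus also compares untreated with treated plants, and time and treatment cannot be told apart there. The labels call the S0 tissue inflorescence meristem and the later tissues flowers of successive stages. The values described are those of 1 peak list per stage, which the authors called on the pooled replicates and which carries no value per replicate. No spread between replicates can therefore be given, no difference between stages was tested, and the depth of the libraries is unknown.

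TCP proteins share a basic helix-loop-helix domain that binds DNA and are divided into class I and class II. The CIN type, named after CINCINNATA of snapdragon, belongs to class II and is known for ending cell proliferation in leaves and petals and promoting differentiation. TCP2, TCP3, TCP4, TCP10 and TCP24 carry a site for the microRNA miR319, which cuts their transcripts, whereas TCP5, TCP13 and TCP17 do not. H3K27ac is a mark of active genes, and in plants it lies mostly in the first part of the transcribed region.

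The miR319 sequences and their sites are shown because the stretch of DNA that encodes the site is one of the positions at which the 5 targeted genes differed in peak coverage. The mature sequences were read from the RefSeq reference (TAIR10.1), and the capitals mark the seed, bases 2 to 8 from the 5′ end. The mature sequences of MIR319a (chr4:12353109-12353129, plus strand) and MIR319b (chr5:16660469-16660489, minus strand) are identical, and MIR319c (chr2:17029870-17029890, plus strand) has the same seed.
MIR319a: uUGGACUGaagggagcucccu
MIR319c: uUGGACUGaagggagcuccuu

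The best match to miR319a in each targeted transcript lay in a coding exon, 729 to 1002 bp after the start codon. Capitals mark bases that form Watson-Crick pairs with miR319a, and all 5 sites hold the run CCCUUCAGUCCA.
TCP2 (chr4:10163402-10163422, minus strand): caGGgGgaCCCUUCAGUCCAA
TCP3 (chr1:19850522-19850542, minus strand): gaGGgGucCCCUUCAGUCCAu
TCP4 (chr3:5063300-5063320, plus strand): gaGGgGucCCCUUCAGUCCAg
TCP10 (chr2:13221210-13221230, minus strand): AaGGgGuaCCCUUCAGUCCAg
TCP24 (chr1:10628989-10629009, minus strand): uaGGgGgaCCCUUCAGUCCAA

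The pairing score, in which a mismatch adds 1 and a G:U pair adds 0.5, was 3.5 for TCP10, 4 for TCP4 and 4.5 for TCP2, TCP3 and TCP24. Of 27440 genes scanned, 67 held a match with a score of 4.5 or lower, a limit taken from the highest score of the targeted genes themselves. The best scores in TCP5, TCP13 and TCP17 were 8.5, 7.5 and 6, at which 25529, 15581 and 1679 genes held a match at least as good. These 3 genes thus held no match that scored as low as those of the targeted genes.

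H3K27ac peaks were found on the miR319-targeted genes and on none of the other 3. TCP2, TCP3, TCP4 and TCP24 carried a peak at all 4 stages, TCP10 at S2 and S8, and TCP5, TCP13 and TCP17 at no stage. Thus 4 of the 8 genes were marked at S0, where 43.8% of all protein-coding genes had a peak, and 5 at S2, where 34.5% had one. At S4 the count was 4 of 8 beside a background of 36.4%, and at S8 it was 5 of 8 beside 36.6%. Over all stages, 26.7% of protein-coding genes had a peak at each stage and 51.6% at none, against 4 and 3 of the 8 genes. With 8 genes these shares are a description of these lists. The tissue was bulk, so a mark in fewer cells and a weaker mark in each cell cannot be told apart, and a gene without a peak may have a mark below the authors' limits.

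**Figure D1:**
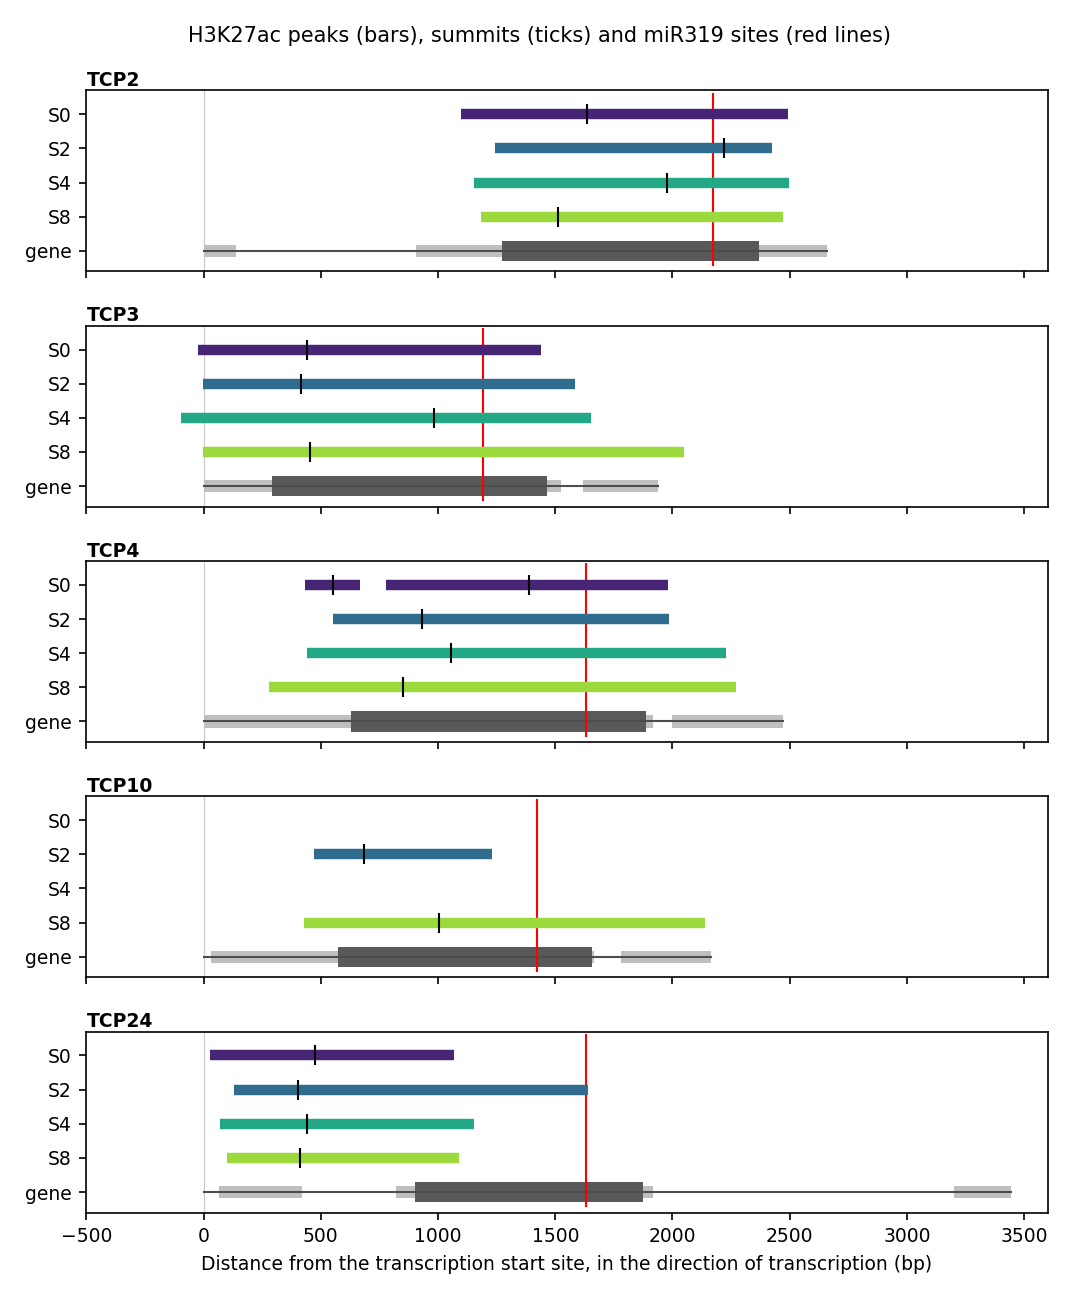
Position of H3K27ac peaks on TCP2, TCP3, TCP4, TCP10 and TCP24, with the distance from the TSS in bp on the x axis and a row for each stage and for the gene model (wide dark box, coding sequence; grey boxes, untranslated exons; line, gene extent). Bars are peaks, black ticks are summits and the red line is the miR319 site, which lies inside the bars of TCP2, TCP3 and TCP4 at all 4 stages and of TCP10 at S8.

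The representative peaks of TCP2, TCP3, TCP4 and TCP10 had their summits in the coding sequence, whereas those of TCP24 had their summits ahead of it. In each of the 8 genes the coding sequence is a single exon part of 729 to 1263 bp. The representative peak of a gene is the one with the highest −log10 p at that stage, which gave 18 peaks over the genes and stages. Of these summits 14 lay in a coding exon, 7 within the first 500 bp after the TSS and 0 upstream of the gene. Among all protein-coding genes with a peak, the summit lay within the first 500 bp in 58.1%, 59.4%, 60.2% and 60.4% of them at the 4 successive stages. The median distance of the summit from the TSS was 930, 683, 1017.5 and 849 bp for the CIN-type genes at S0, S2, S4 and S8, and 362, 355, 357 and 360 bp for all genes with a peak.

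TCP2, at positions 10162922 to 10165583 of chromosome 4 (minus strand), has the start codon 1274 bp after the TSS, in exon 2. Its peak ran from 10163092 to 10164487 at S0, from 10163159 to 10164339 at S2, from 10163086 to 10164428 at S4 and from 10163113 to 10164401 at S8. The first edge of the peak thus lay between −178 and −30 bp relative to the start codon, and the peak covered 100% of the coding sequence at each stage, leaving exon 1 and intron 1 outside. Its summit was 1637, 2219, 1978 and 1511 bp after the TSS, always in coding exon 2. Summits more than 1000 bp after the TSS were found in only 6.07% to 6.71% of all genes with a peak.

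TCP3, at positions 19849788 to 19851725 of chromosome 1 (minus strand), was marked over most of its length at S0, S2 and S4 and over all of it at S8. The peak ended 1439, 1585, 1651 and 2049 bp after the TSS at S0, S2, S4 and S8, and covered 74.3%, 81.8%, 85.2% and 100% of the gene. The summit was 441, 417 and 453 bp after the TSS at S0, S2 and S8 and 981 bp after it at S4, always in coding exon 1. An annotated long noncoding RNA on the other strand, AT1G53233, overlaps TCP3, and ChIP-seq has no strand, so the peak cannot be given to one of the 2 genes.

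TCP3 was the only one of the 8 genes whose peak reached into the 250 bp ahead of the TSS, by 25, 3, 95 and 4 bp at S0, S2, S4 and S8. That window (chr1:19851726-19851975, minus strand, RefSeq TAIR10.1) is printed 5′ to 3′ with the 95 bases that lie in the S4 peak in capitals, because it is the only upstream sequence of these genes that carried the mark. The capitals hold 73.7% C or T, against 63.2% in the whole window.
TCP3 upstream: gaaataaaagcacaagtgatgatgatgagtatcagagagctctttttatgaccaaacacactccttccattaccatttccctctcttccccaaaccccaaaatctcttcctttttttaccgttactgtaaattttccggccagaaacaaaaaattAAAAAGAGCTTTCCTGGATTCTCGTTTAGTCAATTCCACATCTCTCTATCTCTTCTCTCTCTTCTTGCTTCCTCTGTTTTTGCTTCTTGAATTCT

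Sequences that TCP proteins are known to bind were searched on both strands of the 250 bp ahead of the TSS. The letters GGNCCC were found in none of the 8 windows and in 7.35% of 27443 windows of that length ahead of protein-coding genes. The letters GGACCA were likewise found in none, against 5.90% of all windows. The longer forms GTGGNCCC and GGNCCCAC, found in 0.670% and 1.09% of all windows, contain GGNCCC, so their absence from the 8 windows follows from its absence.

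TCP4, at positions 5061681 to 5064152 of chromosome 3 (plus strand), has its start codon 627 bp after the TSS. At S0 it carried 2 peaks, a weak one from 5062113 to 5062350 with its summit in the 5′ UTR and the representative one from 5062460 to 5063661 in coding exon 1. At S2, S4 and S8 a single peak overlapped both places, from 5062235 to 5063665, from 5062123 to 5063908 and from 5061958 to 5063954. The representative peak covered 88.0% of the coding sequence at S0 and 100% at the later stages.

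TCP10, at positions 13220478 to 13222642 of chromosome 2 (minus strand), had a peak from 13221413 to 13222172 at S2 and from 13220502 to 13222212 at S8. The S2 peak covered 60.5% of the coding sequence and stopped short of the miR319 site, whereas the S8 peak covered 100% of it and the site. At S0 and S4 the nearest peak lay 1884 and 1803 bp beyond the end of the gene, and its nearest TSS was that of EMB2785 (AT2G31060). Of all protein-coding genes, 105 had peaks at S2 and S8 only.

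TCP24, at positions 10627185 to 10630630 of chromosome 1 (minus strand), has its start codon 902 bp after the TSS. Its summit was 473, 401, 443 and 411 bp after the TSS at S0, S2, S4 and S8, in intron 1 at S0 and S4 and in the 5′ UTR part of exon 1 at S2 and S8. The peak covered 17.3%, 75.7%, 25.8% and 19.2% of the coding sequence. At S2 it took in 19 of the 21 bases of the miR319 site, and at the other 3 stages it took in 0 of them.

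Coverage of the coding sequence in genes of like structure gives the scale. Genes with a peak and 1 coding exon of 900 to 1300 bp, a class that holds all of these genes but TCP17, numbered 464, 400, 407 and 417 at S0, S2, S4 and S8. The median share of their coding sequence in the peak was 68.9%, 76.6%, 72.1% and 72.7%, and the whole coding sequence lay in the peak in 21.1%, 19.0%, 23.3% and 21.6% of them. Over all genes with a peak, the median share was 26.1% to 28.9%.

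**Figure D2:**
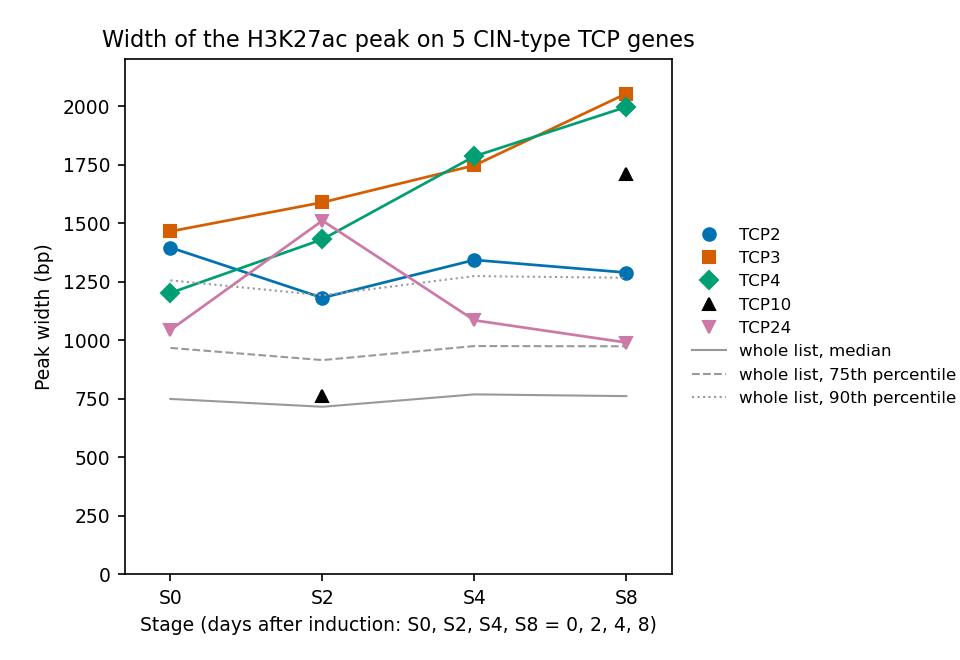
Width in bp (y axis) of the representative H3K27ac peak of TCP2, TCP3, TCP4, TCP10 and TCP24 at each stage (x axis), with lines between successive stages that both have a peak. Grey lines give the median and the 75th and 90th percentiles of all peaks of the stage, and of the coloured points only TCP10 at S2, at 760 bp, lies under the 75th percentile.

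The peaks on the CIN-type genes were wide. Of the 18 representative peaks, 17 were at or above the 75th percentile of width in their list and 12 at or above the 90th. Their median width was 1299, 1431, 1545 and 1711 bp at S0, S2, S4 and S8, against 749, 715.5, 768.5 and 761 bp for all peaks of those lists. TCP2, TCP3, TCP4, TCP10 and TCP24 are 1938 to 3446 bp long, and the median length of all genes with a peak was 2433 to 2474 bp.

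TCP3 had a wider peak at each later stage, and the peak of TCP4 was wider at S4 and S8 than at S0 and S2. The peak of TCP3 measured 1465, 1589, 1747 and 2054 bp over the 4 stages. The increase of 589 bp from S0 to S8 was at the 97.7 percentile of the changes of 9308 genes with a peak at both stages, whose median was −33 bp. The representative peak of TCP4 measured 1202, 1431, 1786 and 1997 bp, but the order of S0 and S2 rests on leaving out the second peak at S0. With that peak the S0 width was 1440 bp summed and 1549 bp joined, both above the width at S2. The increase of TCP4 from S0 to S8 was 795 bp between representative peaks (98.9 percentile), 557 bp with the peaks summed (97.4 percentile) and 448 bp with them joined (95.8 percentile). TCP10 went from 760 bp at S2 to 1711 bp at S8. Its increase of 951 bp was at the 99.0 percentile of 8240 genes, and at the 97.2 percentile of 8164 genes with peaks joined. Both widths are of peaks near the limit of the calls, at the 5.61 and 11.0 percentiles of −log10 p.

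TCP2 and TCP24 did not follow that course. The widths of TCP2 were 1396, 1181, 1343 and 1289 bp in stage order, with the narrowest peak at S2. TCP24 was widest at S2, at 1511 bp, and 1044, 1085 and 990 bp wide at S0, S4 and S8. Its increase of 467 bp from S0 to S2 was at the 97.9 percentile of 8883 genes. Its change of −521 bp from S2 to S8 was at the 1.29 percentile of 8240 genes.

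**Figure D3:**
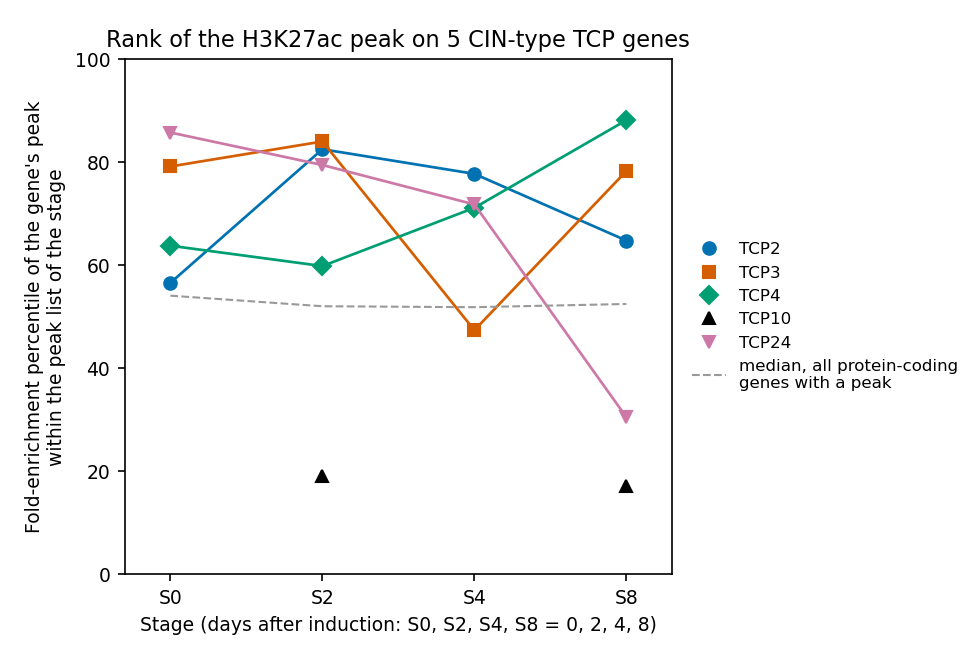
Percentile of fold enrichment (y axis) of the representative H3K27ac peak of TCP2, TCP3, TCP4, TCP10 and TCP24 among all peaks of the stage (x axis), with lines between successive stages that both have a peak. The dashed line is the median over all protein-coding genes with a peak, and TCP24 passes from 85.8 at S0 to 30.5 at S8 while TCP4 passes from 63.8 to 88.2.

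By height the peaks were above the middle of their lists but not among the highest. Fold enrichment over the input, as the authors give it at the summit, was ranked within each list, because lists called separately have no common scale. Of the 18 representative peaks, 14 were at or above the 50th percentile and 0 at or above the 90th. Their medians were the 71.5, 79.5, 71.5 and 64.8 percentiles in stage order, and that of all genes with a peak was 54.1, 52.1, 51.9 and 52.5.

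TCP24 ranked lower at each later stage. Its fold enrichment was 4.58, 3.74, 3.35 and 2.62 from S0 to S8, which placed it at the 85.8, 79.5, 71.8 and 30.5 percentiles. The change of −55.3 percentile points from S0 to S8 was at the 3.35 percentile of 9308 genes, whose median change was −4.09. Ranked by −log10 p the course was the same, from the 81.7 percentile at S0 to the 20.0 percentile at S8.

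TCP4 moved the other way. Its fold enrichment was 3.59, 3.24, 3.33 and 4.07 at S0, S2, S4 and S8, at the 63.8, 59.9, 71.2 and 88.2 percentiles. The change of 24.4 percentile points from S0 to S8 was at the 89.0 percentile of the same 9308 genes. TCP4 at S8 was the highest ranked of the 18 peaks.

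TCP2 ranked higher at S2 and S4 than at either end of the series. Its fold enrichment was 3.38, 3.85, 3.52 and 3.20, at the 56.6, 82.6, 77.8 and 64.8 percentiles. TCP3 had its low point at S4, with fold enrichments of 4.19, 3.91, 2.85 and 3.59 at the 79.2, 84.1, 47.4 and 78.3 percentiles. At S4 the peak of TCP3 was thus lower in rank but wide, and its summit was the one that lay farther into the gene.

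TCP10 had the lowest of the representative peaks. Its fold enrichment was 2.66 at S2 and 2.46 at S8, at the 19.1 and 17.2 percentiles, and its −log10 p was at the 5.61 and 11.0 percentiles, close to the lowest that the lists hold. Its presence at S2 and S8 and absence at S0 and S4 therefore rests on peaks near the limit of the calls.

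The range of a gene's percentile over the 4 stages shows how far these courses are from the usual. It was 26.0 points for TCP2, 36.7 for TCP3, 28.3 for TCP4 and 55.3 for TCP24, and the median over 7334 genes with a peak at all stages was 33.4, with quartiles of 19.9 and 48.1. Among these 4 genes TCP24 alone lay outside the quartiles.

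The genes nearest to each in their 4 percentiles, by Euclidean distance with 0 for no peak, are given with their distances as a description over 4 lists. For TCP24 the nearest was AGL26 (AT5G26880), at a distance of 3.55, followed by UCP3 (AT1G14140) and PnsL2 (AT1G14150), which share peaks, at 6.31. For TCP4 they were AT5G13260 at 2.70, AFB5 (AT5G49980), an auxin receptor gene, at 7.52 and AT1G08590 at 8.85. For TCP2 they were TPR2 (AT1G04130) at 7.30 and the pair AT1G12960 and PIRL3 (AT1G12970), which share peaks, at 8.80. For TCP3 they were AT4G19645 and AT4G19650, which share peaks, at 5.79, and AT5G46395 at 6.38. For TCP10 they were AT2G19880 at 2.42, AT3G54760 at 3.23 and AT1G23950 at 3.33.

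TCP5, TCP13 and TCP17, which are known to act with the miR319-targeted genes in leaf development, had no peak summit in the gene or 1 kb upstream at any stage, nor a peak that touched the gene. The peak nearest to TCP5, at positions 24535337 to 24537244 of chromosome 5 (minus strand), was 5224, 5396, 11516 and 5351 bp away at S0, S2, S4 and S8. For TCP13, at positions 390720 to 392767 of chromosome 3 (plus strand) and named PTF1 by RefSeq, the gap was 1302, 4281, 4091 and 1348 bp. For TCP17, at positions 2584358 to 2586035 of chromosome 5 (plus strand), it was 3193, 3140, 5348 and 3356 bp. In every case the TSS nearest to that peak was of another gene.

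The other TCP genes are given by class. Of 13 class I genes, which are known mostly for promoting growth, 11 had a peak at S0, S2 and S8 and 10 at S4. At all stages 10 of them had one. Of all protein-coding genes, 43.8%, 34.5%, 36.4% and 36.6% had a peak at S0, S2, S4 and S8, and 26.7% at all stages. TCP6 (AT5G41030) and TCP16 (AT3G45150) had none, and TCP11 (AT2G37000) had none at S4. Of the 3 remaining class II genes, relatives of the branching gene TB1 of maize, only TCP18 (AT3G18550) had a peak, at S0 and at the 5.62 percentile. TCP19 (AT5G51910) had the highest ranked peaks of the class I genes, at the 96.6 to 98.5 percentiles, but the TSS nearest to them was that of AT5G51915. The TSS nearest to the peak was also that of another gene for TCP11 at S0 and S8 and for TCP21 (AT5G08330) at S0. Counting only peaks whose nearest TSS is that of the gene, 8, 10, 9 and 9 of the 13 genes were marked at the successive stages.

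**Figure D4:**
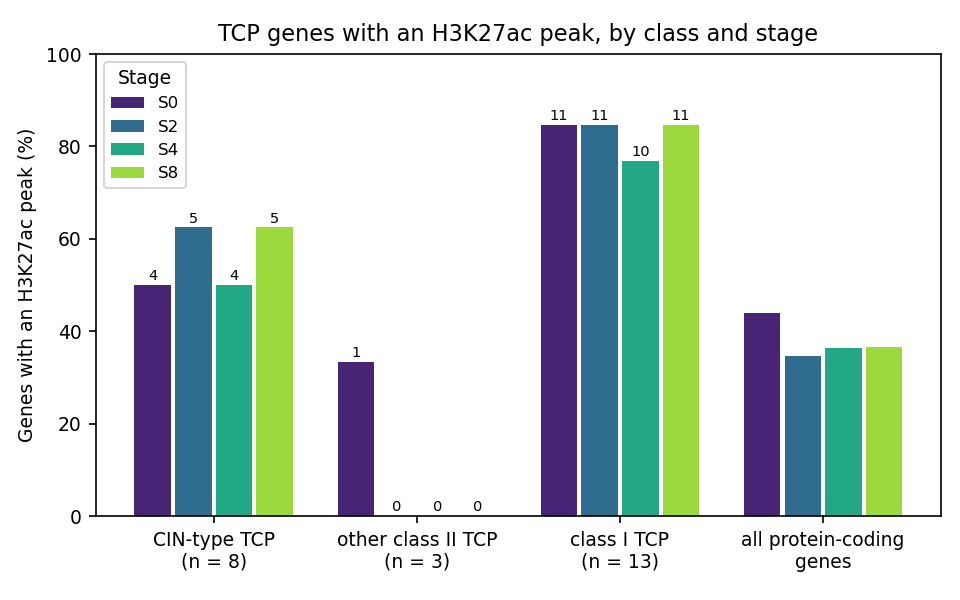
Share of genes with an H3K27ac peak in percent (y axis) for 8 CIN-type, 3 other class II and 13 class I TCP genes and for all 27444 protein-coding genes, with a bar for each stage and the number of genes above the bars of the TCP classes. Class I has 10 or 11 of 13 genes marked at every stage, and the CIN type has 4 or 5 of 8. The share of all protein-coding genes is 34.5% to 43.8%.

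Among regulators and partners of the CIN-type genes, the precursor genes of miR319 differed from each other. MIR319A (AT4G23713) lay under a peak that held the mature sequence at S0, S2 and S4, at the 98.1, 88.9 and 88.8 percentiles of fold enrichment, with summits at −10, −15 and 31 bp relative to the start of the precursor gene. The protein-coding TSS nearest to these summits was that of AT4G23710. At S8 the nearest peak was 1964 bp from MIR319A. The peaks of MIR319C (AT2G40805) ranked at the 80.2, 92.0, 81.6 and 41.4 percentiles and had summits at −955 to −897 bp relative to the start of the precursor gene, nearest to the TSS of AT2G40800, and only at S0 did a further peak hold the mature sequence. MIR319B (AT5G41663) had its nearest peak 5406 to 5578 bp away. At S8, the stage at which the MIR319A peak was missing, TCP4 had its highest rank and TCP24 its lowest. TCP2, TCP3 and TCP10 ranked lower at S8 than at S2, but TCP2 ranked higher at S8 than at S0, and TCP3 higher than at S4. Ranked by −log10 p, TCP10 was higher at S8 than at S2, at the 11.0 and 5.61 percentiles. By width, TCP3, TCP4 and TCP10 had their widest peaks at S8, and TCP2 and TCP24 did not. A relation between these values was not tested.

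Of the other 4 genes of that list, BRM (AT2G46020), a chromatin remodelling ATPase that works with TCP4 in leaves, had a peak at all stages, and RBE (AT5G06070), a petal repressor of TCP genes, TIE1 (AT4G28840), a repressor of TCP proteins, and AS2 (AT1G65620) had none. Of 12 genes known as targets of CIN-type TCPs, 1 had a peak at each stage and 11 had none at any. Of all protein-coding genes, 51.6% had none at any stage. The 12 genes were listed without regard to whether TCP proteins raise or lower their expression. The marked gene was AS1 (AT2G37630), which represses meristem genes in leaf primordia, at the 98.4, 95.0, 94.3 and 94.0 percentiles. LOX2, an enzyme of jasmonate synthesis, and the organ boundary genes CUC1, CUC2 and CUC3 were among the 11 without a peak.

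Markers of the tissue were checked in the same way. AP1 had a peak at all stages, but at the 0.272 and 0.447 percentiles of fold enrichment at S0 and S2, and at the 27.6 and 57.8 percentiles at S4 and S8. The plants also carry the AP1-GR transgene under the AP1 promoter, so reads at AP1 may come from the transgene, the AP1 gene or both. LFY had a peak at S2, S4 and S8, at the 9.79, 60.6 and 2.83 percentiles. The organ identity genes AP3 and SEP3 had a peak at S8 only, at the 78.8 and 40.3 percentiles, while TFL1, PI and AG had none. Of 3 root hair genes 0 had a peak at any stage, and of 2 pollen genes CNGC18 had 1, at S8 and at the 5.24 percentile. Of all protein-coding genes, 51.6% had no peak at any stage. TFL1, PI and AG are known to be active in parts of inflorescences or flowers, so in these lists a gene without a peak is not thereby an inactive gene.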

How the data were processed

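H3K27ac ChIP-seq peak lists of 4 stages were analysed, each made by the authors from 2 pooled replicates. Reads were aligned with Bowtie 1.1.2 to TAIR10, keeping reads with several places in the genome at 1 of them, duplicates were removed with Picard, and peaks were called with MACS2 2.1.0 against the combined inputs and kept by their reproducibility between replicates. Versions are those of the submitters' processing notes. The reads come from Ler plants and the genome is that of Col-0, so diverged sequence can lose reads. The deposited columns used are the fold enrichment, a ratio over input at the summit, and the −log10 p. The lists hold 11583, 8608, 9114 and 9235 peaks at S0, S2, S4 and S8, with a lowest deposited −log10 q of 10.1, 10.0, 10.0 and 10.0. The other deposited scores were not used.

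Gene models were those of RefSeq (TAIR10.1, equal to TAIR10 in nuclear sequence, with newer models). The TSS is the outermost annotated start. A percentile is the share of peaks of the list with a lower value plus 0.5 of those equal. Genes named are the 8 CIN-type genes, for each marked one the 3 genes of most similar percentiles that share no peak with it, and members of comparison lists whose peaks differ between stages, with the marker and other list members named for their known roles or after their values were seen (TCP6, TCP16, TCP19, TCP21, the miR319 precursor genes, AS1 and BRM). The genes and lists were chosen with earlier results of these data known.

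Calculations used Python, NumPy, pandas and matplotlib. Placing of summits was tested on simulated data, with 300 of 300 planted summits placed as planted. Alternatives were other upstream limits, the midpoint or any overlap of the peak, the nearest TSS, shorter lists, joined peaks, and other ranks.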

Additional observations from a re-analysis of the deposited data

How the results depend on the processing

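Under other settings, 68 values were computed for 16 results. Of these, 64 moved by less than 1.5 times (counts) or by less than the SD over the genes (medians). That SD is over only 4 or 5 genes and is a wide limit, so the count of 64 is not a measure of stability. The counts of CIN-type genes with a peak were the same at every stage with the gene body alone, 2 kb upstream, the midpoint of the peak, any overlap, the nearest TSS only, peaks within 500 bp joined, and the 8608 peaks of highest −log10 p in every list, which is the length of the shortest list. The gene body alone and the nearest TSS could not change them. Of the 18 representative summits 0 lay upstream of the gene, and for all 18 the nearest TSS was that of the gene. With the 50% of peaks of highest −log10 p, and with the 5000 such peaks, the count at S8 was 3 in place of 5, since TCP10 and TCP24 dropped out. TCP10 also dropped out at S2 under both, and TCP2 at S0 under the limit of 5000. When peaks were ranked by fold enrichment times width, which counts the width of these peaks, the median percentile rose at every stage. It rose from 71.5 to 85.4 at S0 and from 71.5 to 91.2 at S4. It also rose from 79.5 to 90.6 at S2 and from 64.8 to 85.8 at S8, by less than the SD over the genes. Of 18 changes in width recomputed with all peaks of a gene, which was added after seeing the data, 15 kept their direction within 1.5 times. That count is not a sign of stability, since only TCP4 was put to a test. TCP2, TCP3, TCP10 and TCP24 had no second peak to add or join, so their changes stayed the same. The change of TCP4 from S0 to S2, 229 bp between representative peaks, was −9 bp with peaks summed and −118 bp with peaks joined, since TCP4 had a second peak at S0, and its change from S0 to S8 was 448 bp with peaks joined. No paired analysis was possible because the lists pool the replicates, and for the same reason no replicate could be left out.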
